A study of Canis lupus familiaris with 8 samples.

Results

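The circadian clock and melatonin genes described here are AANAT, CLOCK, PER1, PER2, PER3, CRY1, CRY2, NR1D1, NR1D2 and DBP. They were chosen by name, as the clock of the retina together with the enzyme of its melatonin output, and all 10 were found by symbol among the 12824 genes of the deposited expression table. The tissue was retina of male wild-type Beagle dogs aged 31 weeks, with 4 PFA-fixed libraries and 4 fresh-frozen libraries. PFA-fixed retina came from left eyes held in 4% paraformaldehyde (PFA, a crosslinking fixative) for 3 h and in 2% PFA for 24 h, then cryoprotected in 15% and 30% sucrose and frozen in embedding medium. Fresh-frozen retina came from right eyes embedded in that medium with neither fixation nor sucrose. RNA of the fixed tissue was released with proteinase K for 18 h at 56 °C and purified with a kit for paraffin-embedded tissue, whereas the unfixed tissue went through a micro-scale column kit. Preparation, eye and kit thus differed together between the groups and cannot be told apart. The labels give neither the hour at which eyes were taken nor the dog behind each library, so a p-value here reflects only how far these 8 libraries differ among themselves.

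In the vertebrate clock, CLOCK and its partner BMAL1 bind DNA as a pair and switch on the PER and CRY genes, whose proteins return to the nucleus and repress that pair. A second loop runs through the REV-ERB receptors encoded by NR1D1 and NR1D2 and the ROR receptors, which compete at the BMAL1 promoter, and DBP carries the rhythm to output genes. Retina holds a clock of its own. AANAT, arylalkylamine N-acetyltransferase, acetylates serotonin on the way to melatonin, and in many vertebrates it is active in photoreceptors at night.

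Values are log2 CPM, that is, log2 counts scaled by the authors to the size of each library. Changes are PFA-fixed minus fresh-frozen on the log2 scale, from one limma fit over all genes, and a gene is called where its p-value, adjusted over all 12824 genes by the Benjamini-Hochberg method, lies under 0.05. Each member was covered by an estimated 583 to 6426 reads in a library, which gives a counting error of 0.019 to 0.055 on the log2 scale. The measured SD between libraries exceeded the counting error in 20 of 20 combinations of member and group.

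The clock genes did not move as a block. PER3 was 3.31-fold and PER1 1.62-fold as abundant in PFA-fixed as in fresh-frozen retina, CRY2 and DBP stood at 0.645-fold each, and CLOCK and NR1D1 differed by less than the test could call. As deposited, 4 of 10 members rose (PER1, PER2, PER3 and CRY1) and 4 fell (CRY2, NR1D2, DBP and AANAT), although PER2 was at -0.05 with libraries centred on the median of rod genes; the background is 33.9% of all genes called higher and 34.7% called lower. The 8 calls compare with 68.7% of all genes called in either direction, so the number of calls is near the background and is not a result about these genes. The groups did not overlap in 6 members (62.9% of all genes). The median change of the members was -0.04, and that of all genes -0.02. Only PER3 passed 2-fold, a size that 24.4% of all genes reached, and 6 of 10 members stayed within 1.5-fold, as did 55.5% of all genes.

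**Figure D1:**
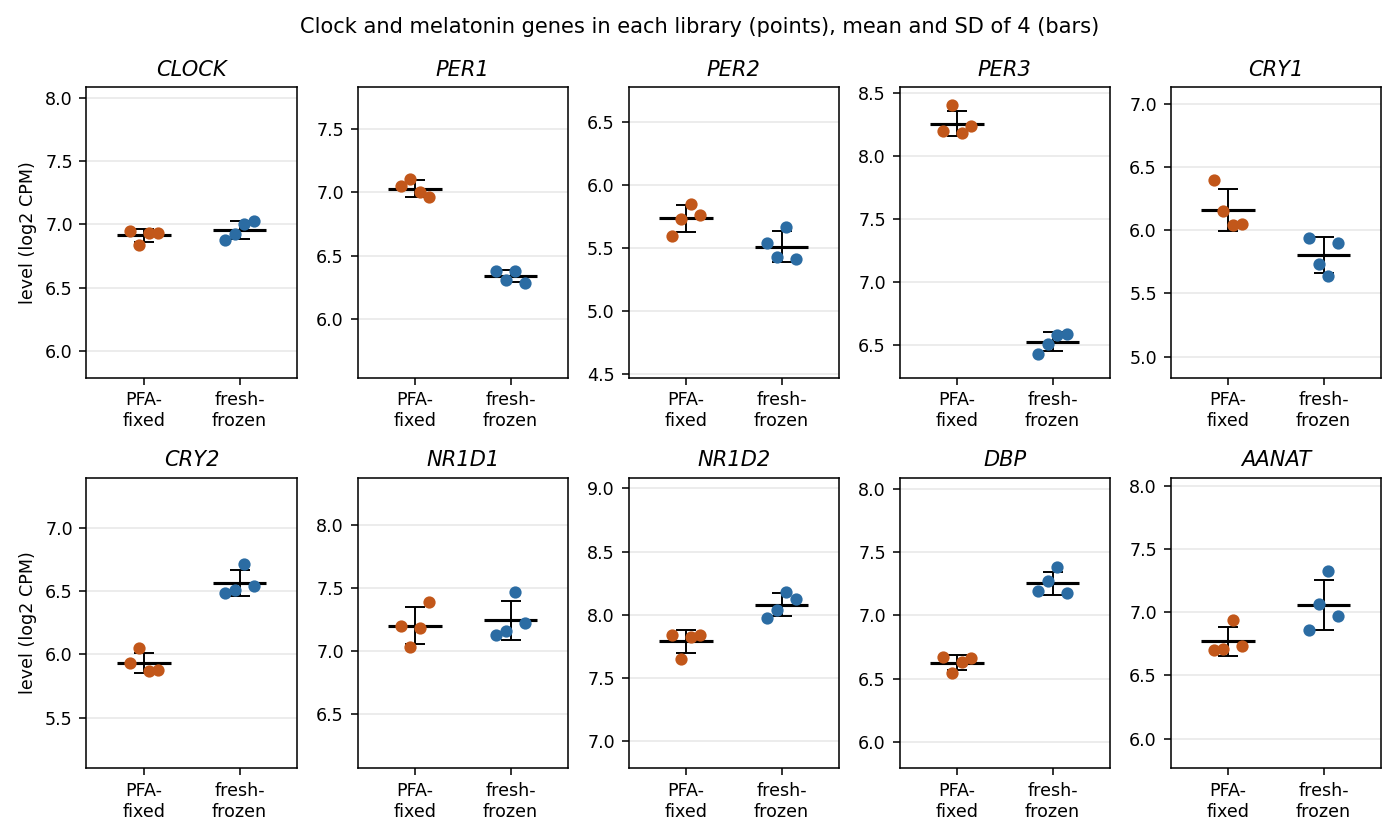
Level of each clock and melatonin gene (log2 CPM, vertical axis) in 4 PFA-fixed and 4 fresh-frozen libraries (points), with the group mean and SD (bars); every panel spans the same range of log2 units. PER3 shows the widest gap, 8.18 to 8.40 in PFA-fixed and 6.43 to 6.59 in fresh-frozen libraries, while the points of CLOCK and of NR1D1 overlap.

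The activating arm was uneven. CLOCK, a basic helix-loop-helix PAS transcription factor, had 6.95, 6.84, 6.93 and 6.93 log2 CPM in PFA-fixed replicates 1 to 4, against 6.88, 6.92, 7.00 and 7.03 in fresh-frozen replicates 1 to 4. The ranges overlap, and CLOCK differed by -0.04 with a 95% interval of -0.18 to 0.09 (limma adjusted p = 0.551). This interval leaves room for a difference of 0.886-fold to 1.06-fold. Its partner BMAL1, listed here as a partner gene and not as a member, had 6.47, 6.61, 6.48 and 6.48 log2 CPM in PFA-fixed and 5.71, 5.68, 5.49 and 5.52 in fresh-frozen retina. All fixed libraries lay above all unfixed ones, and BMAL1 rose by 0.91 ± 0.075 (SE; limma adjusted p = 6.27e-07). NPAS2, which can stand in for CLOCK in the pair, averaged 3.43 ± 0.16 log2 CPM in PFA-fixed and 3.82 ± 0.30 in fresh-frozen retina (SD, n = 4 each). NPAS2 was called lower by a small margin (change of -0.39, limma adjusted p = 0.0445), but was no longer called after removal of 1 library in 5 cases (PFA-fixed replicate 1, 2 or 3, fresh-frozen replicate 1 or 4; changes of -0.42 to -0.31, adjusted p of 0.0595 to 0.126), after quantile normalization (-0.16) and with each library centred on its median (-0.31).

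The 3 period genes, which encode the repressors that CRY proteins bind, were all higher after fixation as deposited, by very different amounts. PER3 had 8.20, 8.40, 8.18 and 8.24 log2 CPM in PFA-fixed replicates 1 to 4 and 6.43, 6.51, 6.58 and 6.59 in fresh-frozen replicates 1 to 4. It rose by 1.73 ± 0.068 (SE; limma adjusted p = 2.22e-09), or 3.31-fold with a 95% interval of 2.99 to 3.67. A change at least as large in the same direction was measured for 376 of all genes (2.93%), PER3 among them. In linear units PER3 stood at 307 ± 22.1 CPM in PFA-fixed and 92.5 ± 4.75 CPM in fresh-frozen retina (SD, n = 4 each).

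PER1, which light induces rapidly in the brain clock of rodents, had 7.05, 7.11, 7.00 and 6.96 log2 CPM in PFA-fixed and 6.38, 6.31, 6.38 and 6.28 in fresh-frozen replicates 1 to 4. Its groups were tight and well apart, and it rose by 0.69 ± 0.062 (SE; limma adjusted p = 1.21e-06). A change at least as large in the same direction was measured for 18.0% of all genes. PER2, a core repressor whose loss disrupts rhythms in mice, had 5.60, 5.73, 5.85 and 5.76 log2 CPM in PFA-fixed and 5.54, 5.43, 5.67 and 5.41 in fresh-frozen replicates 1 to 4. PFA-fixed replicate 1 lay below fresh-frozen replicate 3, and the rise of 0.22 ± 0.085 (SE) passed narrowly (limma adjusted p = 0.0373). Removal of 1 library ended that call in 6 cases (PFA-fixed replicate 2, 3 or 4, fresh-frozen replicate 1, 2 or 4; changes of 0.18 to 0.23, adjusted p of 0.0520 to 0.103), and so did limma without trend (adjusted p = 0.0512). With libraries centred on the mean and the median of the rod genes, PER2 was at 0.05 and -0.05 and was not called.

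The cryptochromes, the partners of PER in repression, went in opposite directions. CRY1 had 6.40, 6.15, 6.04 and 6.05 log2 CPM in PFA-fixed and 5.94, 5.73, 5.64 and 5.90 in fresh-frozen replicates 1 to 4. All fixed libraries were higher, by a margin that was small beside the spread within each group, and CRY1 rose by 0.35 ± 0.099 (SE; limma adjusted p = 0.00729). In the RefSeq table of UU_Cfam_GSD_1.0, CRY1 overlaps MTERF2, a gene at 11.7 CPM in PFA-fixed and 10.6 CPM in fresh-frozen retina that was not called (change of 0.14, limma adjusted p = 0.311). Whether reads were assigned by strand is not given in the sources used here.

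CRY2, which binds PER proteins as CRY1 does, had 5.93, 6.05, 5.87 and 5.88 log2 CPM in PFA-fixed and 6.49, 6.51, 6.72 and 6.54 in fresh-frozen replicates 1 to 4. Every fixed library was lower, and CRY2 fell by 0.63 on the log2 scale (SE of 0.075; limma adjusted p = 1.38e-05), to 0.645-fold with a 95% interval of 0.575 to 0.723. The log2 ratio of CRY1 to CRY2 within a library, which a factor applied to a whole library cannot alter, was 0.47, 0.10, 0.17 and 0.17 in PFA-fixed and -0.55, -0.78, -1.08 and -0.64 in fresh-frozen replicates 1 to 4. It shifted by 0.99, or 1.98-fold, between groups that did not overlap.

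Ratios within other pairs shifted as well. PER3 to PER1 averaged 1.23 ± 0.070 in PFA-fixed and 0.19 ± 0.11 in fresh-frozen libraries (log2 ratio; SD, n = 4 each). PER1 to PER2 averaged 1.30 ± 0.14 in PFA-fixed and 0.82 ± 0.077 in fresh-frozen libraries. Ratios also shifted for the activator pair and for the REV-ERB genes. BMAL1 to CLOCK averaged -0.40 ± 0.11 in PFA-fixed and -1.36 ± 0.18 in fresh-frozen libraries. NR1D1 to NR1D2 averaged -0.59 ± 0.096 in PFA-fixed and -0.84 ± 0.086 in fresh-frozen libraries. In each of these 4 pairs the groups did not overlap, by a narrow gap for NR1D1 to NR1D2 (lowest PFA-fixed value -0.64, highest fresh-frozen value -0.71). The groups overlapped for NPAS2 to CLOCK (shift of -0.35) and for AANAT to the rod gene RCVRN (-0.16). A factor applied to a whole library cannot alter these ratios. They were not tested, as they combine genes whose changes were tested singly. No background over all gene pairs is given, and the groups did not overlap in 62.9% of all single genes.

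**Figure D2:**
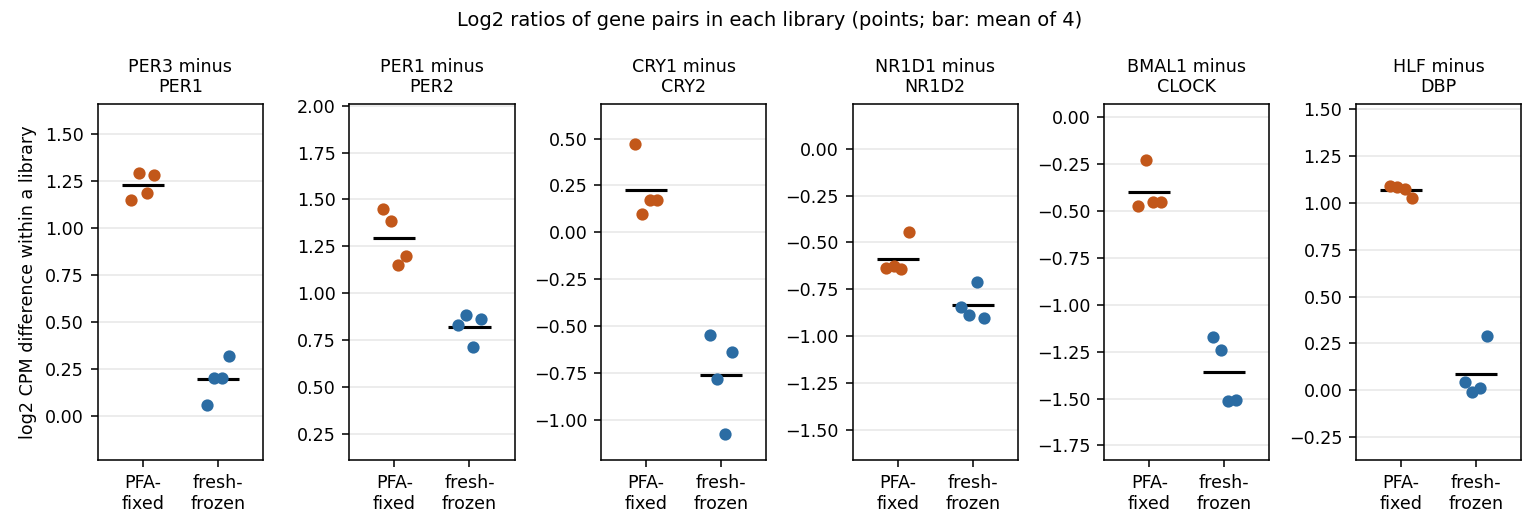
Difference in log2 CPM between the genes of a pair within each library (vertical axis, all panels spanning the same range) for 4 PFA-fixed and 4 fresh-frozen libraries, with the group mean as a bar. Not all pairs are shown, and those whose groups overlapped (NPAS2 to CLOCK, DBP to TEF, AANAT to RCVRN) are left out. The ratio of CRY1 to CRY2 lies at 0.10 to 0.47 in PFA-fixed and at -1.08 to -0.55 in fresh-frozen libraries, and that of HLF to DBP at 1.03 to 1.09 in PFA-fixed and -0.01 to 0.29 in fresh-frozen libraries.

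In the second loop, the REV-ERB genes moved little. NR1D1, which encodes the haem-binding repressor REV-ERB alpha, had 7.20, 7.03, 7.18 and 7.39 log2 CPM in PFA-fixed and 7.13, 7.16, 7.47 and 7.22 in fresh-frozen replicates 1 to 4. The ranges overlap and NR1D1 was not called (-0.04, 95% interval of -0.25 to 0.16, limma adjusted p = 0.693). Its neighbour THRA, which overlaps NR1D1 on the opposite strand in other mammals, was at -0.09 (limma adjusted p = 0.439); the RefSeq table of the dog shows the 2 genes side by side, without overlap.

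NR1D2, the REV-ERB beta gene, had 7.84, 7.65, 7.82 and 7.84 log2 CPM in PFA-fixed and 7.97, 8.04, 8.18 and 8.12 in fresh-frozen replicates 1 to 4. The groups did not overlap and NR1D2 fell by 0.29 on the log2 scale (SE of 0.068; limma adjusted p = 0.00235), or to 0.817-fold. Of the opposing receptor genes, RORB, whose product is abundant in retina, averaged 9.28 ± 0.13 log2 CPM in PFA-fixed and 9.57 ± 0.12 in fresh-frozen retina (SD, n = 4 each) and fell by 0.28 (limma adjusted p = 0.00997), or by 0.46 and 0.56 when libraries were centred on the mean and median of the rod genes. RORA averaged 7.26 ± 0.089 log2 CPM in PFA-fixed and 7.17 ± 0.091 in fresh-frozen retina and was not called (0.09, limma adjusted p = 0.291).

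On the output side, 2 of 3 PAR bZIP genes fell together and the third rose. DBP, an activator at D-box sites whose mRNA cycles strongly in many tissues of rodents, had 6.67, 6.54, 6.63 and 6.66 log2 CPM in PFA-fixed and 7.19, 7.27, 7.38 and 7.18 in fresh-frozen replicates 1 to 4. No library of one group reached the other, and DBP fell by 0.63 on the log2 scale (SE of 0.066; limma adjusted p = 4.60e-06), to 0.645-fold with a 95% interval of 0.584 to 0.713. Its relative TEF averaged 7.00 ± 0.050 log2 CPM in PFA-fixed and 7.60 ± 0.11 in fresh-frozen retina (SD, n = 4 each) and fell by 0.61 (limma adjusted p = 7.65e-06). HLF averaged 7.69 ± 0.053 log2 CPM in PFA-fixed and 7.34 ± 0.11 in fresh-frozen retina and rose by 0.35 (limma adjusted p = 6.00e-04), by 0.18 and 0.08 and no longer called when libraries were centred on the mean and median of the rod genes. The log2 ratio of DBP to TEF averaged -0.37 ± 0.041 in PFA-fixed and -0.35 ± 0.078 in fresh-frozen libraries, with overlapping groups, whereas that of HLF to DBP shifted by 0.98.

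AANAT had 6.70, 6.71, 6.94 and 6.73 log2 CPM in PFA-fixed and 6.86, 7.07, 7.33 and 6.97 in fresh-frozen replicates 1 to 4. PFA-fixed replicate 3 lay above fresh-frozen replicate 1, so the groups overlap. AANAT fell by 0.29 on the log2 scale (SE of 0.099; limma adjusted p = 0.0225), or to 0.821-fold with a 95% interval of 0.706 to 0.954. In linear units it averaged 110 ± 9.04 CPM in PFA-fixed and 134 ± 19.3 CPM in fresh-frozen retina (SD, n = 4 each). The call ended without fresh-frozen replicate 3 (-0.19, limma adjusted p = 0.0568), without PFA-fixed replicate 1 (-0.26, limma adjusted p = 0.0614) or 2 (-0.26, limma adjusted p = 0.0582), and with each library centred on its median (-0.21, limma adjusted p = 0.0792).

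Of all genes with a mean of at least 3 log2 CPM (10153 genes), those whose course over the 8 libraries lay closest to that of AANAT were RAB11FIP4, RORB and GAPDH, with root-mean-square differences of 0.057, 0.065 and 0.071 log2 units after each gene was centred on its mean. Reads of GAPDH can be shared with its pseudogenes, and its level is therefore uncertain. RORB had 9.26, 9.17, 9.47 and 9.24 log2 CPM in PFA-fixed and 9.43, 9.54, 9.72 and 9.58 in fresh-frozen replicates 1 to 4. Replicate 3 was the highest in both groups, as for AANAT. Since RORB was picked for its likeness to AANAT, this shared course is no separate result. Among the members, NR1D2 was closest to AANAT (0.11), and the closest pair was CRY2 and DBP (0.089). PER3 stood farthest from the others, with PER1 as its nearest member at 0.52.

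The partner list held 37 other genes of the clock and of melatonin synthesis and sensing, of which 27 were measured. Of these, 12 rose and 9 fell, and their median change was 0.07. The 21 calls (77.8%) compare with 68.7% of all genes. Apart from OPN4, the genes that changed at least 2-fold were BHLHE40, TPH1 and DRD4.

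BHLHE40, a repressor at E-box sites, averaged 5.06 ± 0.24 log2 CPM in PFA-fixed and 6.48 ± 0.085 in fresh-frozen retina (SD, n = 4 each) and fell by 1.42 (limma adjusted p = 3.95e-07). Its paralogue BHLHE41 averaged 6.72 ± 0.089 log2 CPM in PFA-fixed and 7.09 ± 0.032 in fresh-frozen retina and fell by 0.37 (limma adjusted p = 2.45e-04), or by 0.64 with libraries centred on the rod median. CIART, a further repressor of the CLOCK pair, was low and variable at 2.12 ± 0.45 log2 CPM in PFA-fixed and 2.20 ± 0.19 in fresh-frozen retina and was not called (limma adjusted p = 0.763). Of the 6 measured genes in this group of repressors and modulators, 1 rose, 2 fell and 3 were not called, where 33.9% of all genes rose and 34.7% fell. The one that rose was NONO (0.42, limma adjusted p = 1.31e-04), named after its value was seen. With libraries centred on the rod median none of the 6 was called higher and 3 were called lower. Of all 12824 genes, 2650 were called higher and 6150 lower under that scaling. NONO then stood at 0.15 (limma adjusted p = 0.114) and TIMELESS at -0.58 (limma adjusted p = 0.00669). TIMELESS was also called lower when centred on the rod mean (-0.48, limma adjusted p = 0.0237) and without PFA-fixed replicate 4 (-0.41, limma adjusted p = 0.0172).

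Of 12 listed genes of melatonin synthesis, sensing and light input, 6 were measured, without ASMT, MTNR1A and MTNR1B. Among the 6, TPH1 and DDC belong to synthesis, and only TPH1 of these was called as deposited. Of all 6, 5 were called higher and none lower as deposited, where 33.9% of all genes were called higher. With libraries centred on the rod median, 4 were called higher and 1 lower, where 2650 of all 12824 genes were called higher and 6150 lower. The gene not called as deposited, DDC, averaged 0.13 ± 0.24 log2 CPM in PFA-fixed and 0.70 ± 0.65 in fresh-frozen retina (SD, n = 4 each). DDC was called lower when centred on the rod median (-0.84, limma adjusted p = 0.0420) and without fresh-frozen replicate 4 (-0.87, limma adjusted p = 0.0231). TPH1, tryptophan hydroxylase, which starts serotonin synthesis, had 6.54, 6.64, 6.25 and 6.76 log2 CPM in PFA-fixed and 5.53, 5.30, 5.70 and 5.49 in fresh-frozen replicates 1 to 4. Its groups did not overlap and it rose by 1.04 with a SE of 0.12 (limma adjusted p = 8.00e-06). Thus mRNA of the first enzyme of the pathway was higher and AANAT mRNA lower in the same libraries as deposited. The call of AANAT ended in 4 of the 16 alternatives. The log2 ratio of AANAT to TPH1 averaged 0.23 ± 0.32 in PFA-fixed and 1.55 ± 0.19 in fresh-frozen libraries (SD, n = 4 each).

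DRD4, a dopamine receptor gene whose mRNA follows a daily course in rodent photoreceptors, averaged 6.10 ± 0.32 log2 CPM in PFA-fixed and 4.84 ± 0.27 in fresh-frozen retina (SD, n = 4 each) and rose by 1.27 (limma adjusted p = 3.12e-05). The melanopsin gene OPN4, a marker of light-sensitive ganglion cells, was near 1 CPM, with 1.20, 1.36, 0.50 and 1.03 log2 CPM in PFA-fixed and -0.91, 0.58, 0.20 and -1.10 in fresh-frozen replicates 1 to 4. The groups overlap at these low levels, and OPN4 rose by 1.33 with a wide SE of 0.41 (limma adjusted p = 0.0123). The size of this change depended on the scale, at 0.71 with 1 CPM added before the log2 (limma adjusted p = 0.00941) and 1.99 after quantile normalization (limma adjusted p = 0.00555). CRX, a photoreceptor transcription factor gene, rose by 0.47 (limma adjusted p = 2.56e-04), by 0.29 and 0.19 when centred on the rod mean and median. OTX2, which acts upstream of CRX, was called higher by 0.18 as deposited (limma adjusted p = 0.0366) and was at 0.01 and -0.09, not called, with libraries centred on the mean and median of the rod genes. OTX2 was also not called after quantile normalization (0.12), with limma without trend (0.18), or without PFA-fixed replicate 1, 3 or 4 or fresh-frozen replicate 1, 2 or 4 (0.15 to 0.19, limma adjusted p of 0.0562 to 0.107).

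Measured genes of enzymes that act on PER and CRY proteins or on the CLOCK pair numbered 9. They were kinase and ubiquitin enzyme genes and the deacetylase gene SIRT1, and 4 rose and 4 fell. The background is 33.9% of all genes called higher and 34.7% called lower. With libraries centred on the rod median, 2650 of all 12824 genes were called higher and 6150 lower. Under that scaling 2 of the 9 enzyme genes were called higher and 5 lower. In this group, named after the values were seen, the lowest change was -0.76 for CSNK1E (limma adjusted p = 1.35e-06), a casein kinase that phosphorylates PER. The highest was 0.77 for the deacetylase gene SIRT1 (limma adjusted p = 8.33e-06), beside 0.74 for the deubiquitinase gene USP2 (limma adjusted p = 2.98e-07). Centred on the rod median, SIRT1 stood at 0.50 and USP2 at 0.47.

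**Figure D3:**
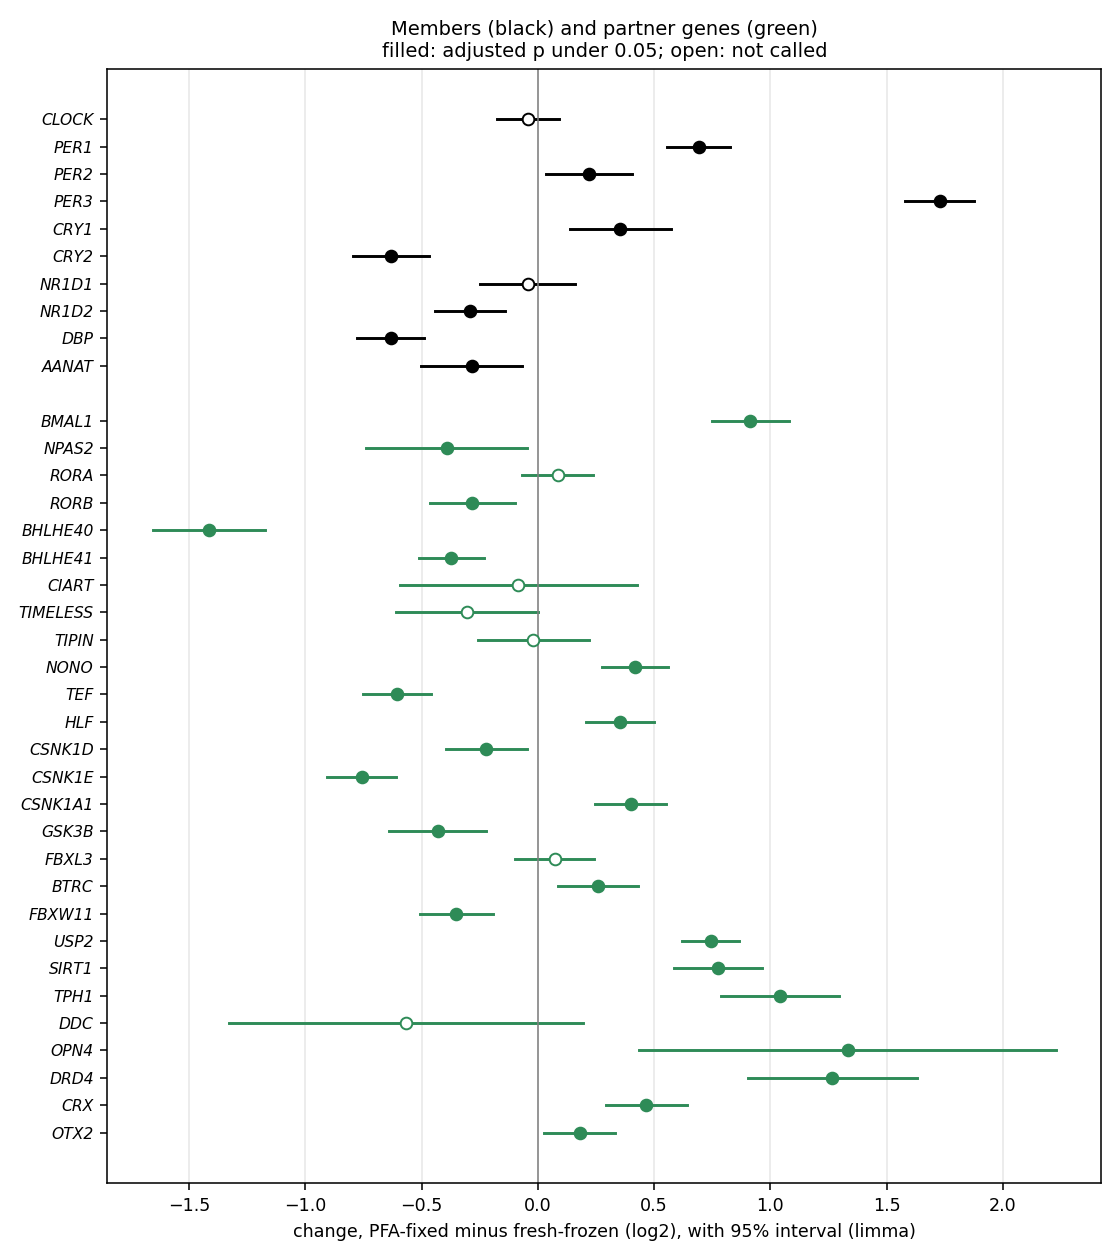
Change of each member (black) and of each measured partner gene (green), PFA-fixed minus fresh-frozen on the log2 scale (horizontal axis), with its 95% interval from limma; filled points have an adjusted p under 0.05. PER3 at 1.73 is the largest change among the members, and BHLHE40 at -1.42 the lowest change shown.

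Within a group the members varied little. The median SD over the 10 members was 0.095 log2 units in PFA-fixed and 0.099 in fresh-frozen retina. For the 3563 genes whose group means lay in the same range of levels (5.51 to 8.26 log2 CPM), the medians were 0.099 in PFA-fixed and 0.11 in fresh-frozen retina. One library differed from the rest of its group across members. Fresh-frozen replicate 3 stood above its group mean in 9 of 10 members, by 0.27 for AANAT, 0.22 for NR1D1, 0.16 for PER2 and for CRY2 and 0.12 for DBP. CRY1 was the exception at -0.16, and the partner gene BMAL1 lay at -0.11 there. In the other 3 fresh-frozen libraries 2 to 4 members, and in the 4 PFA-fixed libraries 3 to 5 members, lay above the group mean. These deviations are given as values and were not tested. The share of all genes above the group mean in fresh-frozen replicate 3 is not given here. Without that library the median change of all genes was -0.012, against -0.018 with it kept. An offset of the whole library was not tested.

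**Figure D4:**
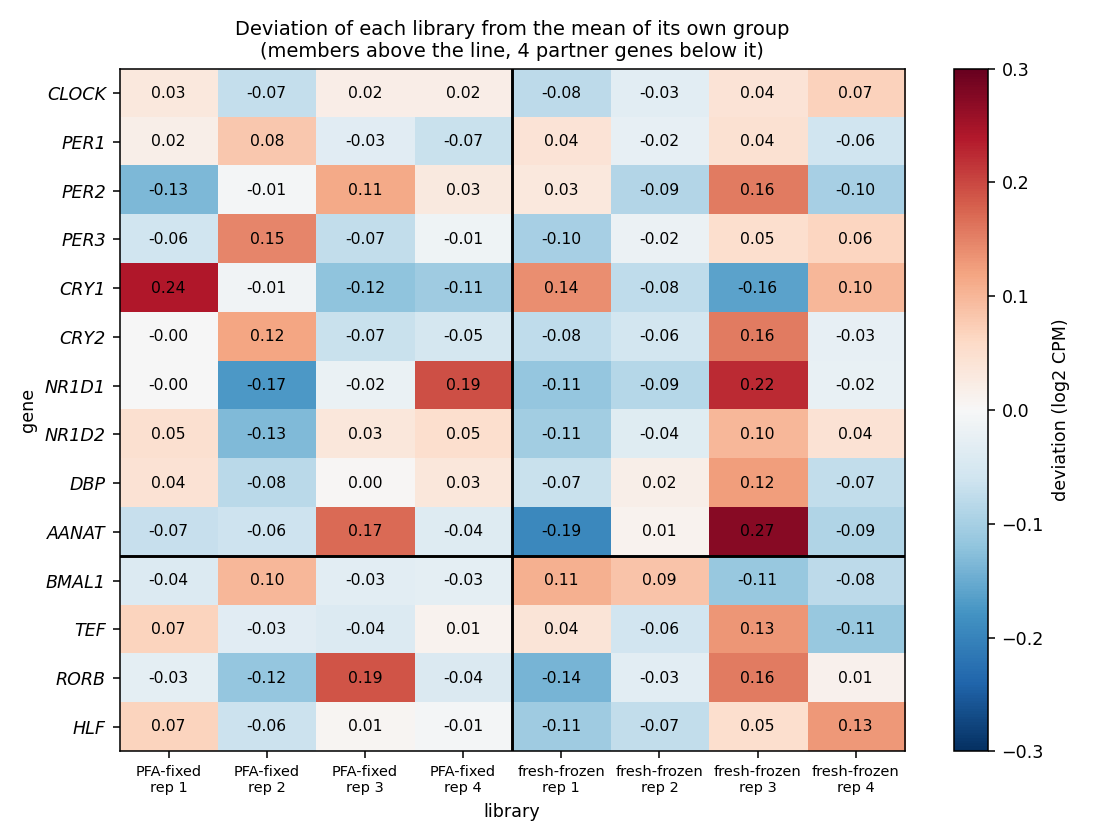
Deviation of each library (columns) from the mean of its own group for the 10 members and for BMAL1, TEF, RORB and HLF (rows), in log2 CPM, with the value printed in each cell and coloured red above and blue below the group mean. In fresh-frozen replicate 3, 9 of 10 members lie above the mean, with AANAT at 0.27 and CRY1 at -0.16.

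The direction of the smaller changes depends on how libraries are scaled. With each library centred on the mean or the median of 20 rod photoreceptor genes, the median change of all genes moved to -0.19 and -0.29, and the share of higher calls among all called genes was 36.9% and 30.1%, against 49.4% as deposited. Under both of these scalings PER1 and PER3 were the only members called higher, with PER1 at 0.52 and 0.42 and PER3 at 1.55 and 1.46. CLOCK was then called lower (-0.22 and -0.32), CRY1 was not called (0.18 and 0.08), and AANAT stood at -0.46 and -0.56. Relative to the median of all genes, AANAT was lower by the same -0.27 with the deposited, the library median and both rod scalings, since these only move all genes of a library together.

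**Figure D5:**
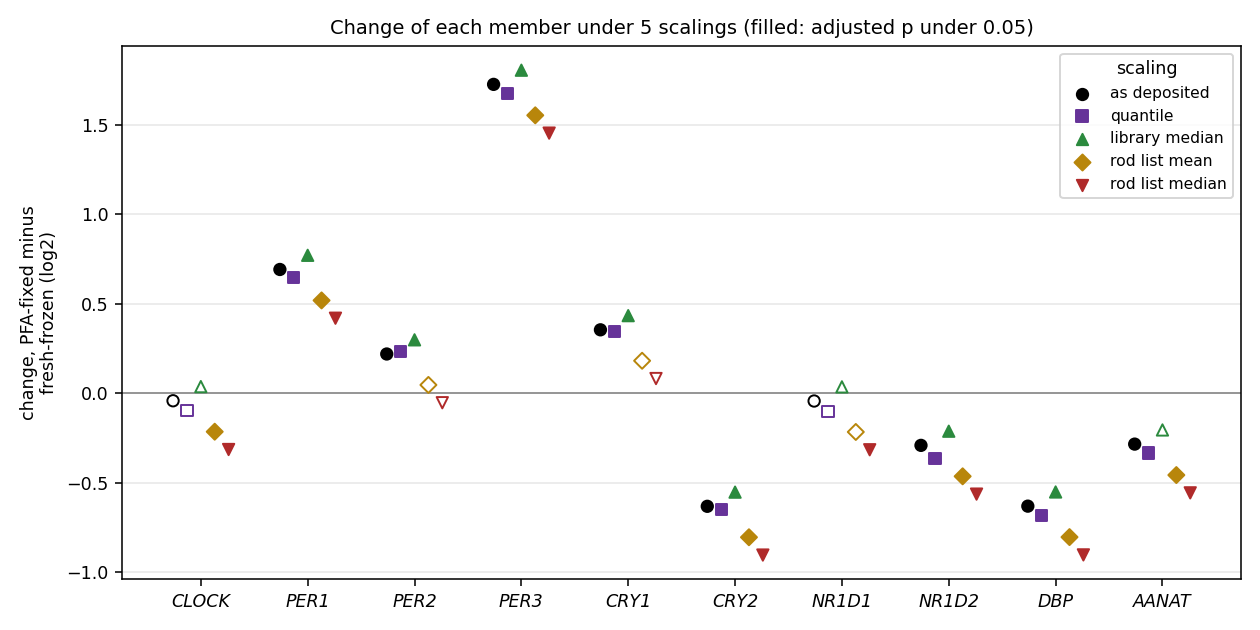
Change of each member, PFA-fixed minus fresh-frozen on the log2 scale (vertical axis), as deposited and under 4 other scalings of the libraries; filled symbols have a limma adjusted p under 0.05. PER1, PER3, CRY2, NR1D2 and DBP keep their direction and call under all 5, while PER2, CRY1, CLOCK, NR1D1 and AANAT are called under some and not under others.

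The labelled tissue was checked with marker lists. All 20 rod genes were measured, with summed levels of 47648 to 52627 CPM in PFA-fixed and 43385 to 49990 CPM in fresh-frozen libraries. Among the rod genes 9 rose and 5 fell. Lists of other tissues of the eye differed widely between the groups. All 8 sclera and fibroblast genes fell, with sums of 27.5 to 45.7 CPM in PFA-fixed and 6874 to 10037 CPM in fresh-frozen libraries. All 7 retinal pigment epithelium genes fell (193 to 252 CPM in PFA-fixed, 1904 to 2955 CPM in fresh-frozen libraries), as did 5 of 5 melanocyte genes (12.2 to 20.3 CPM in PFA-fixed, 1297 to 2028 CPM in fresh-frozen libraries). All 7 endothelium and pericyte genes fell (125 to 149 CPM in PFA-fixed, 732 to 1174 CPM in fresh-frozen libraries), as did 6 of 7 microglia and macrophage genes (30.1 to 48.7 CPM in PFA-fixed, 222 to 360 CPM in fresh-frozen libraries) and 4 of 6 Müller glia genes (2983 to 3878 CPM in PFA-fixed, 5961 to 7934 CPM in fresh-frozen libraries). RLBP1 was on both the pigment epithelium and the Müller glia list and was counted in each. Of 6 oligodendrocyte genes, 4 fell (37.0 to 39.7 CPM in PFA-fixed, 216 to 1008 CPM in fresh-frozen libraries). Inner retina neuron genes, of which 6 of 10 rose and 3 fell, summed to 2608 to 3161 CPM in PFA-fixed and 1828 to 2029 CPM in fresh-frozen libraries, and 9 cone genes, of which 1 rose and 2 fell, to 750 to 1265 CPM in PFA-fixed and 789 to 1332 CPM in fresh-frozen libraries. No marker stood at the lowest value of the table in all 4 libraries of a group. Clock genes are active in most of these cell types, and the part of these tissues in the falls of CRY2, DBP, NR1D2, TEF and BHLHE40 was not tested. In bulk tissue, fewer cells of a type and less RNA per cell cannot be told apart.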

How the data were processed

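Per the submitters' processing notes, the authors used kallisto 0.48.0, edgeR and limma; not given in the sources used here were what each tool did, any filter, the strand setting and the transcript reference. Values deposited by the authors are log2 CPM for 12824 genes in 8 libraries, with a shared lowest value of -3.12; linear sums of 947376 to 1058310 CPM show a scaling between libraries. Effective depth, estimated from the spacing of low values (searched between 0.03 and 0.15 CPM), was 11040000 to 15380000 reads in PFA-fixed and 21650000 to 22750000 in fresh-frozen libraries. Of values of up to 20 reads, 61.4% to 67.3% were whole within 0.1 of a read, too few to recover counts, so no count test was run. Changes were fitted in R 4.3.3 with limma 3.58.1 (trend on mean level, group as the only term), a step tested on simulated data. Alternatives were leaving out each library, a replicate block, 4 other scalings, a minimum of 3 log2 CPM, 1 CPM added before the log2, and no trend. Members and lists were chosen with earlier results of these data known. All members were described, with partners BMAL1, NPAS2, RORA, RORB, TEF, HLF, CIART, BHLHE40, BHLHE41 and DRD4 and any called partner with a change of at least 1. The RefSeq table of UU_Cfam_GSD_1.0 (10 members and 12495 of 12824 symbols matched) served for neighbours only. Sequences of these genes were not used here.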

Additional observations from a re-analysis of the deposited data

Results flagged for a closer look

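Each member and each named partner gene was searched for a library far from the other 3 of its group, with a gap to its neighbour, relative to the group's range, above Dixon's 95% critical value. This was done in 44 combinations of gene and group, and chance flags about 1 in 20. All 4 flags were in the PFA-fixed group. AANAT stood at 6.94 log2 CPM in PFA-fixed replicate 3, against 6.70 to 6.73 in the other 3 libraries, and without that library its change was -0.34 (limma adjusted p = 0.0128). The remaining flags were in PFA-fixed replicate 2. CLOCK was at 6.84 there, against 6.93 to 6.95 in the others. NR1D2 was at 7.65, against 7.82 to 7.84, and BMAL1 at 6.61, against 6.47 to 6.48.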

How the results depend on the processing

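Of the members, PER1, PER3, CRY2, NR1D2 and DBP kept their direction and call under all 16 alternatives. Members called higher numbered 4 as deposited, 2 with libraries centred on rod genes by their mean, and 2 by their median. By the median of rod genes, 7 partner genes were called higher against 12, and 2650 of all genes against 4353. The direction turned for CLOCK (0.037) and NR1D1 (0.035) with library medians, for PER2 (-0.054) when centred on the rod median, for RORA when centred on the rod mean (-0.088) or rod median (-0.19), and for CIART with quantile normalization (0.31). Leaving out single libraries gave -0.11 to 0.030 for NR1D1 and -0.24 to 0.10 for CIART. In these runs 3 to 4 members were called higher and 3 to 4 lower. Whether libraries of the same number came from the same dog is not known from the labels, and the values did not settle it. Across 10153 genes, deviations of same-numbered libraries from their group means correlated at 0.01, 0.26, -0.15 and 0.27 for replicates 1 to 4. Only 1 of 4 PFA-fixed libraries correlated best with its own number. With the replicate block, 4 members rose and 4 fell, 12 partner genes rose and 9 fell, and 4336 of all genes rose and 4463 fell; the block ended none of the members' calls. The cause of these differences was not tested. Depth limits OPN4, DDC and CIART, near or below 2 log2 CPM, more than the members. Settings are compared by counts of calls, not by which genes were called, except where genes are named.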

Other observations

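The protein-coding genes next to the members in the RefSeq table of UU_Cfam_GSD_1.0 were looked up after the values were seen, and 18 of 20 were measured. Of the 15 measured beside a called member, 11 (73.3%) were called, against 68.7% of all genes, a share near the background. Of these 11, 7 changed in the direction of the member and 4 in the opposite one. PER1 lies between HES7 and VAMP2, which rose by 1.39 and 1.09 on the log2 scale (limma adjusted p of 0.00776 and 8.48e-07). HES7 was low, at 0.85 log2 CPM in PFA-fixed and -0.54 in fresh-frozen retina, and its change had a wide SE of 0.39. CRY2 lies between MAPK8IP1 and SLC35C1, which fell by 0.55 and 0.41 (limma adjusted p of 3.62e-04 and 0.0124). AANAT lies between RHBDF2 and UBE2O, which rose by 1.20 and 0.29 (limma adjusted p of 2.48e-06 and 0.00460) while AANAT fell. DBP lies between CA11 and SPHK2, which rose by 0.63 and 0.39 (limma adjusted p of 0.00172 and 0.00622) while DBP fell.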
